A study of Mus musculus with 149 samples.

Results

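The comparison described here set OVA-sensitized mice given 500 ng of TSLP (8 animals) against OVA-sensitized mice given the buffer alone (8 animals), with whole lung taken at 6 h. The members were the 16 arrays whose labels give these treatments, with 133 further arrays in the series, 1 array per animal. All of the animals compared were BALB/c mice sensitized to OVA, the buffer was 0.1% MSA, and the labels give no age, sex, route or source of the TSLP. The other groups used below included OVA-sensitized animals at 6 h given 1500 ng TSLP (8), 150 ng TSLP (7) or saline (8). Naive BALB/c animals at 6 h were given 500 ng TSLP (8), buffer (6) or saline (8). OVA-sensitized animals at 24 h were given 500 ng TSLP (7) or buffer (8). The question was how TSLP affects inflammation of the airways, with and without sensitization.

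TSLP is a cytokine of epithelial cells whose receptor pairs CRLF2 with the alpha chain of the IL-7 receptor and signals through JAK1, JAK2 and STAT5. In the airway it is known to act on dendritic cells, basophils, mast cells and innate and adaptive lymphocytes, and to favour the type 2 cytokines IL-4, IL-5 and IL-13. IL-13 in turn drives goblet cell mucus and the eotaxin chemokines that draw eosinophils. In whole lung, more cells of a type and more RNA per cell cannot be told apart.

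Expression is given as log2 values normalized by the authors with RMA, and a change is the mean of the 500 ng TSLP arrays minus the mean of the buffer arrays on that scale, with its SE from limma fitted over all arrays. A gene was called where its two-sided limma p, adjusted by Benjamini-Hochberg over 13494 genes, was under 0.05. The median value of an array lay between 9.0 and 9.05 in the 16 arrays, and the number of arrays limits the precision. One technical measure moved with the treatment. The difference between the 3' and 5' control probe sets of beta-actin, which grows with RNA breakdown and with short labelling products, ran from 1.22 through a median of 1.84 to 2.22 in the 500 ng TSLP arrays, against 2.26, 2.57 and 2.96 in the buffer arrays, so the groups did not overlap. The means were 1.79 ± 0.31 with TSLP and 2.57 ± 0.26 with buffer (SD, n = 8 each), a difference of -0.78 (SE 0.14, exact two-sided permutation p = 0.000155, adjusted p = 0.00109 over 7 comparisons). The same difference for the pyruvate carboxylase control, examined after the data were seen, was 2.78 ± 0.24 with TSLP and 2.66 ± 0.29 with buffer (exact permutation p = 0.369, n = 8 each). The fit was therefore repeated with the beta-actin measure as a covariate, and wherever a gene described below lost its call in that fit, this is stated. One of the buffer arrays, replicate 7, stood apart by keratins of gullet epithelium, with Krt4 at 14.05 and Krt13 at 13.90, against at most 7.60 and 5.93 on the other 15 arrays.

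**Figure D1:**
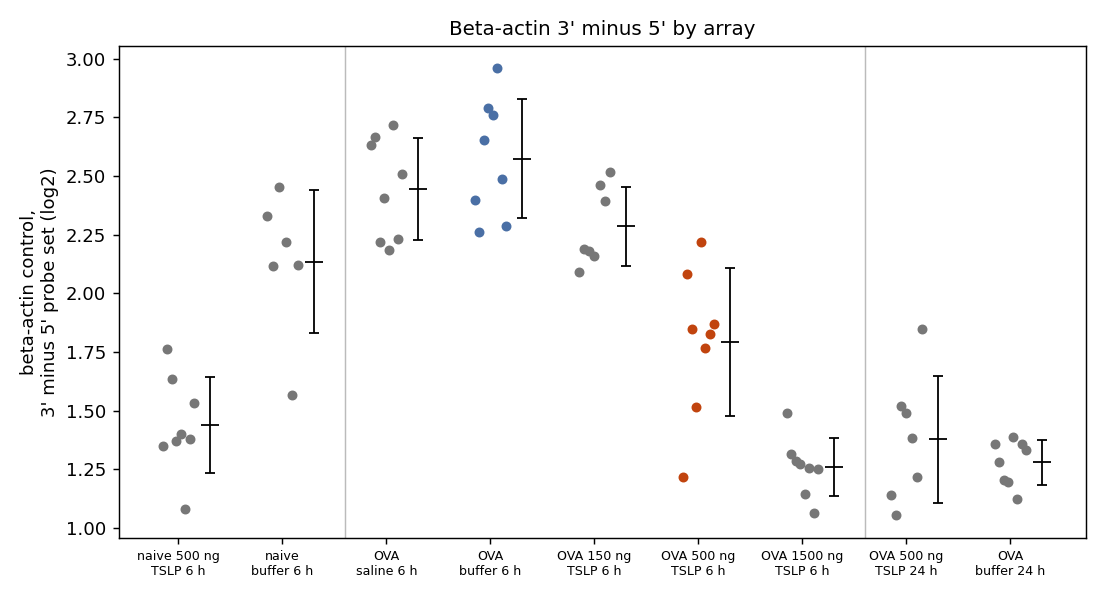
The beta-actin 3' minus 5' difference (log2, vertical axis) is plotted for each array of 9 groups along the horizontal axis, with the mean and SD beside the points. The 500 ng TSLP arrays of OVA-sensitized mice at 6 h (orange) averaged 1.79, the buffer arrays (blue) averaged 2.57, and the 24 h groups averaged 1.38 with TSLP and 1.28 with buffer.

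In the lungs given 500 ng TSLP, 2558 genes rose (19% of those tested) and 2971 fell (22%) relative to buffer, and 6621 genes had an unadjusted limma p under 0.05. Without the gullet arrays the total was 5228 genes. Most of these changes were small: 39 of the genes that rose and 6 of those that fell moved more than 2-fold. The median change over all genes was -0.03. With the beta-actin covariate, 643 genes rose (4.77%) and 435 fell (3.22%), and 877 of these calls were also made without it in the same direction. All 8 TSLP arrays lay above all 8 buffer arrays for 457 genes (3.39%) and below all of them for 421 genes (3.12%). A fit to the 16 arrays alone with the covariate, added after the data were seen, called 0 genes by limma, with 1436 genes at an unadjusted p under 0.05.

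The gene with the largest rise was Aldh1a3, which makes retinoic acid from retinaldehyde. Its value ran from 7.87 through a median of 9.57 to 10.14 in the TSLP arrays, against 5.12, 6.70 and 7.72 in the buffer arrays. All 8 TSLP values were above all 8 buffer values, and the lowest TSLP value belonged to replicate 5. The change was 2.85 (SE 0.43, adjusted p = 9.58e-08), or 7.23-fold, and it was 2.47 with the covariate (adjusted p = 0.00056). It rested on 1 of the 3 Aldh1a3 probe sets, taken for its mean of 7.49 over all arrays, TSLP arrays included. The choice was therefore not independent of the rise, and the median of this probe set in the buffer arrays was 6.70. The other 2 probe sets, with means of 6.66 and 6.88 over all arrays, changed by 0.21 and 0.12. Aldh1a1, another retinaldehyde dehydrogenase and a marker of club cells, fell by 0.18 (SE 0.04, adjusted p = 3.22e-05).

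**Figure D2:**
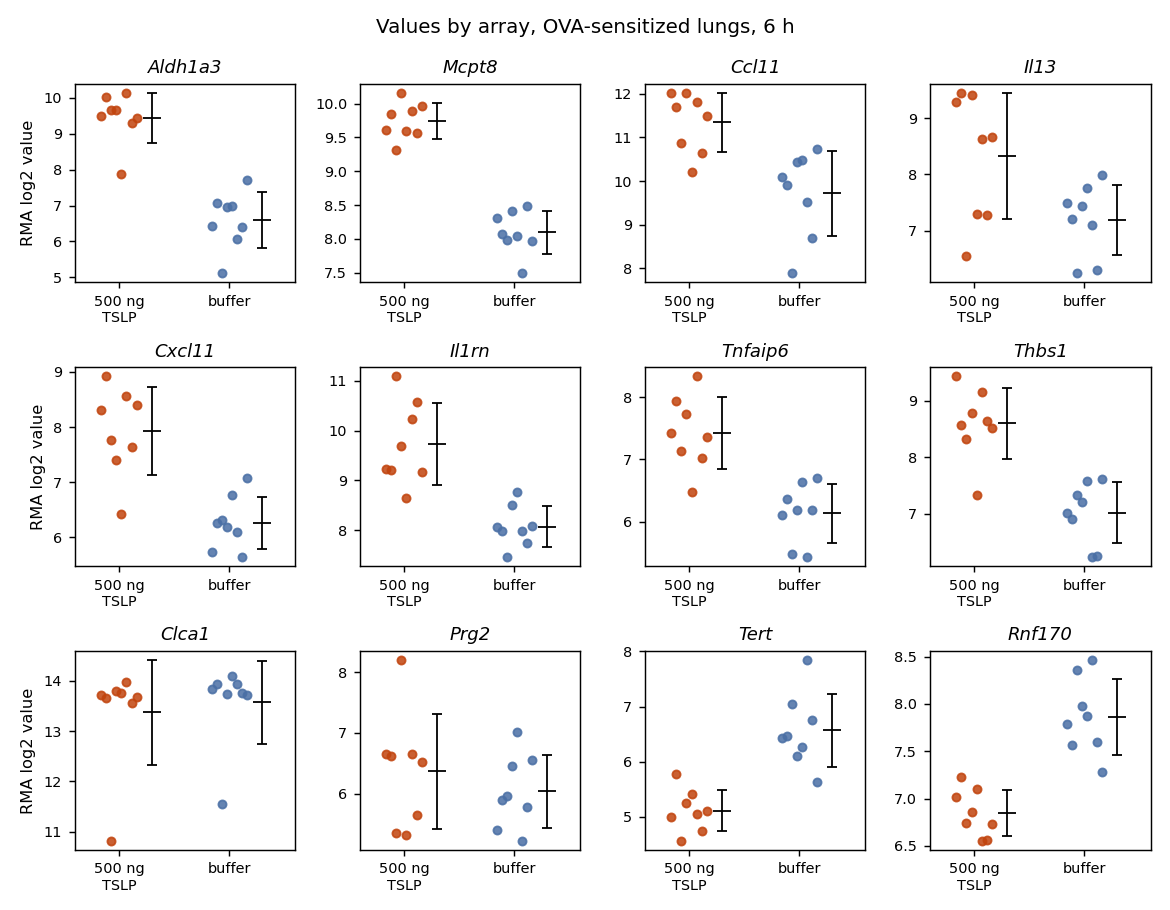
RMA log2 values (vertical axes) of 12 genes are plotted for each array of OVA-sensitized mice at 6 h, with 500 ng TSLP on the left (orange) and buffer on the right (blue), and with the mean and SD beside the points. Aldh1a3 and Mcpt8 did not overlap between the groups, Il13 had 5 of 8 TSLP arrays above all buffer arrays, and Clca1 had 1 low array in each group.

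The receptor genes did not pass on the probe sets used. Crlf2, the TSLP-binding chain, averaged 10.64 ± 0.09 with TSLP and 10.55 ± 0.19 with buffer, and Il7r averaged 11.09 ± 0.31 with TSLP and 10.86 ± 0.29 with buffer (SD, n = 8 each). The 95% interval of the change was -0.04 to 0.21 for Crlf2 and -0.05 to 0.51 for Il7r. A second, dimmer probe set of Il7r changed by 0.69 (adjusted p = 0.00181; 0.20 with the covariate, adjusted p = 0.579), and with the mean of both probe sets Il7r rose by 0.46 (adjusted p = 0.0116). Tslp mRNA averaged 10.59 ± 0.38 with TSLP and 10.76 ± 0.24 with buffer, and its interval was -0.39 to 0.06. Of the 12 measured genes of the receptor and JAK-STAT5 list, 5 rose and 0 fell in each fit, without and with the covariate, and the list's median change was 0.23. Jak1, a kinase bound by the IL-7 receptor chain, ran from 11.48 through 11.57 to 11.69 with TSLP and from 10.91 through 11.18 to 11.28 with buffer. The groups did not overlap, and the change was 0.41 (SE 0.06, adjusted p = 5.42e-08; 0.27 with the covariate), while a second, dimmer Jak1 probe set changed by 0.11 (adjusted p = 0.271). Jak2, the partner kinase, rose by 0.22 (SE 0.04, adjusted p = 9.34e-07). Stat5a, the transcription factor they activate, rose by 0.35 (SE 0.07, adjusted p = 1.25e-05), but its adjusted p was 0.0676 with the covariate. Cish, a STAT5 target that feeds back on cytokine receptors, ran from 10.58 through 11.11 to 11.37 with TSLP and from 9.43 through 10.53 to 10.79 with buffer. Of the TSLP arrays, 5 were above all buffer arrays, and the rise was 0.64 (SE 0.14, adjusted p = 0.000165; with the covariate 0.52, adjusted p = 0.0297). Il2ra, an IL-2 receptor chain that STAT5 also induces, rose by 0.62 (SE 0.17, adjusted p = 0.00228), and against saline its change was 0.32 (adjusted p = 0.123).

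Promoters of 4 genes that rose are shown as examples that hold motifs searched for here, those of STAT, AP-1 and GATA. The sequences are RefSeq promoters on build GRCm38.p6, from 250 bases before the start of transcription to 50 after it, 5′ to 3′ on the gene's strand, and they are from the reference genome and not from BALB/c mice. Motifs were searched on both strands, and the capitals mark the STAT motif TTCNNNGAA in Cish (chr9:107296409-107296708, plus strand), Ccl17 (chr8:94810203-94810502, plus strand) and Tnfaip6 (chr2:52037863-52038162, plus strand), and the AP-1 motif TGANTCA in Cxcl10 (chr5:92348840-92349139, minus strand).
Cish: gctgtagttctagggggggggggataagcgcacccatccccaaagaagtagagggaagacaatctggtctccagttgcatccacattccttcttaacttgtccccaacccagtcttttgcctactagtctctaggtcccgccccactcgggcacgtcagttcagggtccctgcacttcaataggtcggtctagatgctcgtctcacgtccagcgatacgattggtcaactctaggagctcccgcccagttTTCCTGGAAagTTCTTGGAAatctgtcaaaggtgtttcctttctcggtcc
Ccl17: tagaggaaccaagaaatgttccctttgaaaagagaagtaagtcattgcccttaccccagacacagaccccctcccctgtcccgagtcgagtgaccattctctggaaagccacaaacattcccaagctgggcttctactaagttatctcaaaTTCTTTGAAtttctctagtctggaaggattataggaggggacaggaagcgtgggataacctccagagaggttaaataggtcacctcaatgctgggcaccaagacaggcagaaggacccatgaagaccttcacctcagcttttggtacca
Tnfaip6: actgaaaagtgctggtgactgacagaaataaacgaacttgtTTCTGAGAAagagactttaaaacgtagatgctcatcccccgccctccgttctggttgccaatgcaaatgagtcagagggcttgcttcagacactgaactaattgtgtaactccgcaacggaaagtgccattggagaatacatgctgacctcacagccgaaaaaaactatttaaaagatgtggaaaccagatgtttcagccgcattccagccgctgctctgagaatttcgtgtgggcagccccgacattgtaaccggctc
Cxcl10: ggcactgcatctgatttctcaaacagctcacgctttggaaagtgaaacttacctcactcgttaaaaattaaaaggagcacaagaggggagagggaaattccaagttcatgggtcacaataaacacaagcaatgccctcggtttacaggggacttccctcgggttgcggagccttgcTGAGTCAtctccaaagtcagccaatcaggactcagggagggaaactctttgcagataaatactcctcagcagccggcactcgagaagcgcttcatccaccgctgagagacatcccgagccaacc
The Cish window held 2 STAT motifs, the first beginning at the start of transcription and the other 11 bases after it. The Ccl17 motif began 99 bases before the start and the Tnfaip6 motif 209 bases before it, and the Cxcl10 AP-1 motif began 74 bases before it. The STAT motif was present in 8.30% of all 32851 promoters of the table and in 202 of 2654 promoters (7.61%) of the genes that rose. Of the 39 genes that rose more than 2-fold, 28 matched the table, with 34 promoters, and 6 of these promoters (17.6%) held the STAT motif. The same 34 promoters held the AP-1 motif in 9 cases (26.5%), against 7.81% of all promoters. The GATA motif AGATAA was likewise in 9 of the 34 (26.5%), against 11.2% of all promoters. Over the promoters of all tested genes the shares were 6.98% for STAT, 5.77% for AP-1 and 6.90% for GATA. Left unmarked were an AP-1 motif in Tnfaip6 (142 bases before the start) and GATA motifs in Ccl17 and Cxcl10 (109 and 22 bases before it). The marked motifs do not overlap one of another kind, and binding was not measured.

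The type 2 cytokines Il13, Il5 and Il4 all rose. Il13 ran from 6.55 through 8.65 to 9.46 with TSLP and from 6.24 through 7.32 to 7.99 with buffer. Of the TSLP arrays, 5 were above all buffer arrays and replicates 3, 5 and 7 were inside the buffer range, and the rise was 1.14 (SE 0.30, adjusted p = 0.00143; 1.04 with the covariate, adjusted p = 0.0439). Il5, the growth factor of eosinophils, ran from 5.68 through 6.70 to 8.04 with TSLP and from 5.24 through 5.66 to 6.23 with buffer. Its rise was 0.97 (SE 0.26, adjusted p = 0.00147; 0.89 with the covariate), and again 5 TSLP arrays were above all buffer arrays. Il4, which directs T helper cells and IgE switching, rose by 0.67 (SE 0.18, adjusted p = 0.00153; 0.61 with the covariate). These 3 calls depended on the control group: against saline in place of buffer the changes were 0.69 for Il13 (adjusted p = 0.0565), 0.44 for Il5 (adjusted p = 0.162) and 0.24 for Il4 (adjusted p = 0.274). The buffer animals differed from the saline animals by -0.45 for Il13, -0.52 for Il5 and -0.42 for Il4, none past the threshold.

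Of the 12 measured members of the type 2 list 8 rose and 1 fell, with 6 rises and 0 falls with the covariate, and with 4 rises and 2 falls against saline in place of buffer. Against saline, 2586 of all 13494 genes rose and 3103 fell. Il13ra2, a decoy receptor that IL-13 induces, rose by 1.11 (SE 0.27, adjusted p = 0.000471), and Il4ra, the shared signalling chain, rose by 0.45 (SE 0.10, adjusted p = 8.85e-05). Csf2rb, the beta chain shared by the receptors of IL-3, IL-5 and GM-CSF, rose by 0.42 (SE 0.10, adjusted p = 0.000509), with 0.23 against saline (adjusted p = 0.0535). Il13ra1, a signalling chain for IL-13, changed by 0.21 (adjusted p = 0.0567; 0.01 with the covariate). Il33, an alarmin of the lung, rose by 0.50 (SE 0.12, adjusted p = 0.000489), with an adjusted p of 0.0811 with the covariate. The gene that fell was Stat6, which carries the IL-4 and IL-13 signal. All 8 TSLP arrays (12.31 to 12.68) lay below all 8 buffer arrays (12.71 to 12.76), yet the change was only -0.16 (SE 0.05, adjusted p = 0.0049) and -0.01 with the covariate. A second, dimmer Stat6 probe set changed by 0.07 (adjusted p = 0.486).

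Markers of basophils and mast cells were among the genes that rose. Of 12 measured basophil and mast cell markers, 8 rose and 0 fell, 7 of them also with the covariate, and the list's median change was 0.44. With saline in place of buffer, 5 of the 12 rose and 0 fell, where 2586 of all 13494 genes rose and 3103 fell. Mcpt8, the basophil protease, ran from 9.32 through 9.72 to 10.16 with TSLP and from 7.50 through 8.06 to 8.49 with buffer. The groups did not overlap, and the rise of 1.65 (SE 0.21, adjusted p = 1.06e-09), or 3.13-fold, was 1.72 with the covariate (SE 0.24). Cyp11a1, a steroid-making enzyme that basophils and mast cells also express, rose by 1.20 (SE 0.17, adjusted p = 1.07e-08; 1.24 with the covariate), but its second, dimmer probe set showed no call (adjusted p = 0.988). Cd200r3, an activating receptor of both cell types, rose by 0.90 (SE 0.21, adjusted p = 0.000297), and Kit, the stem cell factor receptor, by 0.63 (SE 0.12, adjusted p = 1.23e-05). The mast cell proteases and their companions did not pass: Cpa3 changed by 0.10 (adjusted p = 0.706), Tpsb2 by 0.01 (adjusted p = 0.97) and Mcpt4 by 0.33 (adjusted p = 0.166). The mean log2 level of the list lay between 8.24 and 8.81 with TSLP and between 7.66 and 8.27 with buffer.

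None of the 5 measured eosinophil markers, of 10 listed, passed. The list's median change was 0.33 (0.14 with the covariate), and its difference from the basophil and mast cell list was not tested. Prg2, the eosinophil major basic protein, ran from 5.31 through 6.57 to 8.20 with TSLP and from 5.22 through 5.93 to 7.02 with buffer, and the highest value belonged to TSLP replicate 4. The change was 0.33 (95% interval -0.26 to 0.93). The chemokines that attract eosinophils and monocytes did rise, 6 of 9 measured members, of which 1, Ccl11, also passed with the covariate. With saline in place of buffer, 4 of the 9 rose and 0 fell, where 2586 of all 13494 genes rose and 3103 fell. Ccl11, eotaxin-1, ran from 10.20 through 11.59 to 12.03 with TSLP and from 7.89 through 10.005 to 10.73 with buffer. Of the TSLP arrays, 6 were above all buffer arrays, and the rise was 1.62 (SE 0.31, adjusted p = 1.5e-05), or 3.08-fold (1.24 with the covariate, adjusted p = 0.0163). Ccl24, eotaxin-2, rose by 1.22 (SE 0.36, adjusted p = 0.00453), but its groups overlapped widely, from 8.52 to 11.27 with TSLP and from 7.32 to 10.63 with buffer. Ccl3, Ccl4 and Ccl12, which recruit monocytes and lymphocytes, rose by 1.24, 0.56 and 0.90, and none of them passed with the covariate.

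Dendritic cell chemokines and costimulatory genes rose in 6 of 9 measured cases, 3 of them also with the covariate. With saline in place of buffer, 3 of the 9 rose and 1 fell, where 2586 of all 13494 genes rose and 3103 fell. Ccl17, a chemokine of activated dendritic cells that draws CCR4-bearing T cells, ran from 11.92 through 12.96 to 13.39 with TSLP and from 10.52 through 11.90 to 12.87 with buffer. Its rise was 1.01 (SE 0.31, adjusted p = 0.00487; 1.10 with the covariate), and against saline it was 0.67 (adjusted p = 0.066). Ccl22, which binds the same receptor, rose by 0.98 (SE 0.30, adjusted p = 0.00565), and against saline its change was 0.35 (adjusted p = 0.353). Cd274, which encodes PD-L1, ran from 9.80 through 10.58 to 10.69 with TSLP and from 9.12 through 9.49 to 9.93 with buffer, with 7 TSLP arrays above all buffer arrays. It rose by 1.02 (SE 0.14, adjusted p = 5.3e-09; 0.66 with the covariate, adjusted p = 0.00147). Cd83 and Cd80, 2 costimulatory molecules, rose by 0.72 and 0.54, with adjusted p of 0.0529 and 0.157 with the covariate, and Cd86 changed by 0.05 (adjusted p = 0.766). A second Cd86 probe set, nearly as bright, changed by 0.65 (adjusted p = 0.000111; 0.63 with the covariate, adjusted p = 0.00792).

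Among the chemokines of neutrophils and genes of acute inflammation, 9 of 16 rose and 0 fell, 6 of them with the covariate. Il1rn, the natural antagonist of the IL-1 receptor, ran from 8.66 through 9.46 to 11.09 with TSLP and from 7.47 through 8.02 to 8.77 with buffer. It rose by 1.66 (SE 0.28, adjusted p = 1.5e-06; 1.11 with the covariate), and its second probe set changed by 1.45. The IL-1 genes it opposes rose too, Il1b by 1.20 (SE 0.21, adjusted p = 3.47e-06) and Il1a by 0.87 (SE 0.16, adjusted p = 4.75e-06). Icam1, an adhesion molecule of vessel walls, rose by 0.24 (SE 0.04, adjusted p = 1.21e-06), with a value of 0.22 with the covariate. Cxcl5, a neutrophil chemokine, rose by 1.57 (SE 0.50, adjusted p = 0.00738), with an adjusted p of 0.104 with the covariate. S100a8, a calcium-binding protein carried by neutrophils, rose by 0.37 (adjusted p = 0.0284; with the covariate 0.207) and lost its call without buffer replicate 6 (adjusted p = 0.131). Acod1, the macrophage enzyme that makes itaconate, rose by 1.51 (SE 0.45, adjusted p = 0.00473). Its TSLP values spread from 7.70 to 11.42, against 6.94 to 8.47 with buffer, and 4 TSLP arrays were above all buffer arrays.

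Of 15 measured interferon-responsive genes, 8 rose without the covariate and 8 with it, and 4 rose against saline in place of buffer. Over all 13494 genes, 2586 rose and 3103 fell against saline. Cxcl11, a ligand of CXCR3, ran from 6.42 through 8.04 to 8.92 with TSLP and from 5.65 through 6.22 to 7.08 with buffer, and all TSLP arrays but replicate 5 were above all buffer arrays. It rose by 1.66 (SE 0.34, adjusted p = 4.53e-05; 1.55 with the covariate), or 3.17-fold. Cxcl10, another CXCR3 ligand, ran from 9.22 through 10.66 to 11.08 with TSLP and from 8.04 through 9.04 to 9.47 with buffer, a rise of 1.497 (SE 0.33, adjusted p = 0.000154). Ifit2, an antiviral effector, did not overlap between the groups (9.79 to 10.92 with TSLP, 8.999 to 9.66 with buffer) and rose by 0.91 (SE 0.12, adjusted p = 2.61e-09; 0.69 with the covariate). Iigp1, an interferon-gamma-induced GTPase, rose by 1.004 (SE 0.18, adjusted p = 2.69e-06), and against saline its change was 0.35 (adjusted p = 0.0989). The antiviral genes Oas2, Rsad2 and Mx1 did not pass, with changes of -0.04, 0.23 and 0.37. Of 7 measured markers of NK and cytotoxic cells, which CXCR3 ligands can attract, 4 rose without the covariate and 2 with it. Against saline in place of buffer, 2 of these markers rose and 1 fell. Gzmb, granzyme B, averaged 7.97 ± 0.17 with TSLP and 7.32 ± 0.45 with buffer (SD, n = 8 each). Its change was 0.65 (SE 0.16, adjusted p = 0.000483) against buffer and -0.02 against saline, where the mean was 7.99.

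Genes of hyaluronan and wound matrix rose in 8 of 11 measured cases and fell in 1, and 5 rose with the covariate. Tnfaip6, whose product TSG-6 cross-links hyaluronan, ran from 6.47 through 7.39 to 8.33 with TSLP and from 5.43 through 6.18 to 6.71 with buffer. The rise was 1.29 (SE 0.22, adjusted p = 1.43e-06; 1.14 with the covariate), and 7 TSLP arrays were above all buffer arrays. Vcan, the proteoglycan versican, rose by 1.07 (SE 0.17, adjusted p = 4.27e-07; 0.97 with the covariate), and its other 2 probe sets changed by 0.75 and 0.51. Has2, a hyaluronan synthase, rose by 0.65 (SE 0.17, adjusted p = 0.00108) and had a value of 0.25 against saline (adjusted p = 0.226). Cd44, the hyaluronan receptor, rose by 0.73 (SE 0.12, adjusted p = 7.48e-07; 0.36 with the covariate). A second Cd44 probe set, nearly as bright, changed by 0.28 (adjusted p = 0.0375; 0.21 with the covariate, adjusted p = 0.313). Thbs1, thrombospondin-1, rose by 1.58 (SE 0.25, adjusted p = 2.45e-07), but by 0.73 with the covariate (adjusted p = 0.0377), and its second, dimmer probe set changed by 0.21 (adjusted p = 0.152). Has3, another synthase, was the member that fell, by 0.59 (SE 0.17, adjusted p = 0.00359), and it lost its call with the covariate (-0.39, adjusted p = 0.200).

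**Figure D3:**
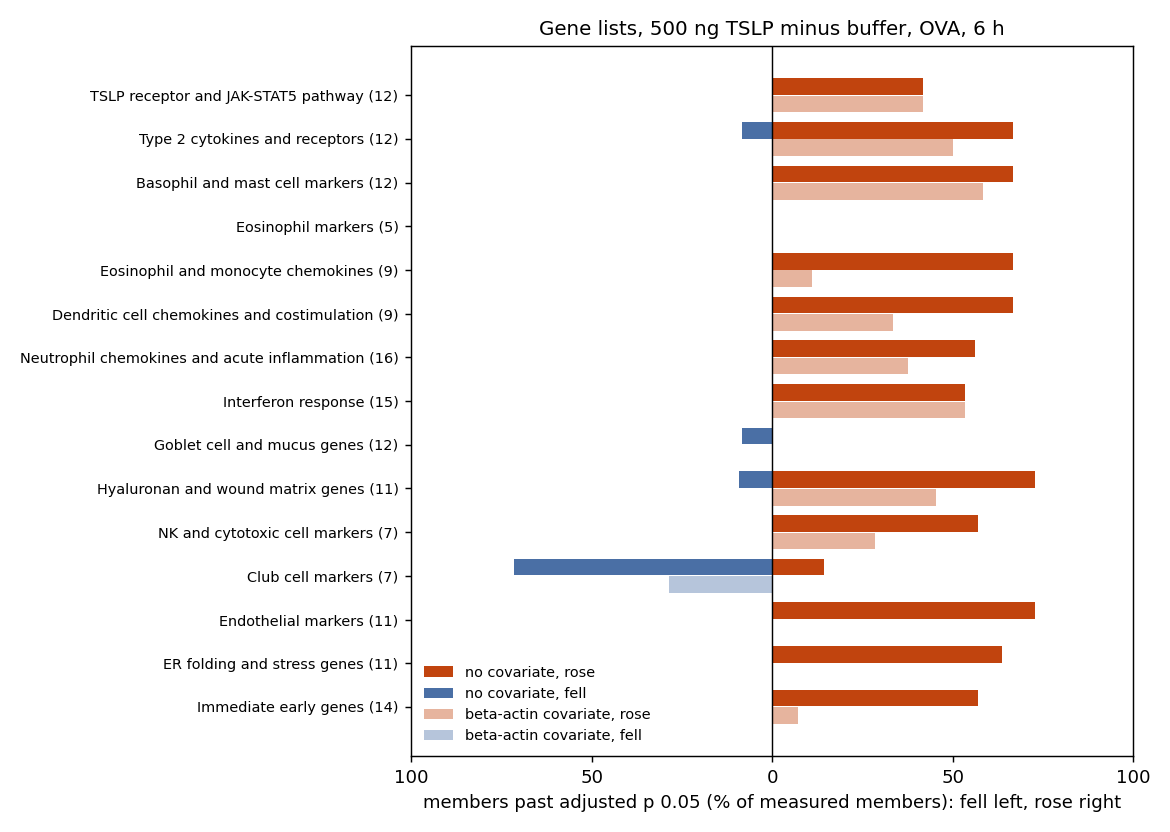
For 15 gene lists, down the vertical axis with the number of measured members, bars give the percentage of members past an adjusted p of 0.05, risen to the right and fallen to the left. Dark bars are from the fit without the beta-actin covariate and pale bars from the fit with it. The JAK-STAT5 and interferon lists had as many rises with the covariate, at 5 of 12 and 8 of 15, and the endothelial and ER lists had none.

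Several lists were called without the covariate and had few or no calls with it. Of 11 endothelial markers, 8 rose without the covariate and 0 with it, and the list's median change was 0.27 without it and 0.08 with it. Kdr, a VEGF receptor, rose by 0.50 (SE 0.11, adjusted p = 7.47e-05) with no overlap between the groups, but its change was 0.07 with the covariate (adjusted p = 0.689). Of 11 genes of protein folding in the endoplasmic reticulum, 7 rose without the covariate and 0 with it. Hyou1, a chaperone of that compartment, rose by 1.32 (SE 0.23, adjusted p = 1.36e-06) and had a value of 0.31 with the covariate (adjusted p = 0.269). Its second probe set, which was dimmer, changed by 0.30. Elf4, a transcription factor of lymphoid cells, rose by 1.45 (SE 0.25, adjusted p = 1.95e-06) and had a value of 0.33 with the covariate (adjusted p = 0.306). Of 14 immediate early genes, 8 rose without the covariate and 1, Atf3, with it. The beta-actin measure moved with each of these changes, and its part in them was not tested.

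**Figure D4:**
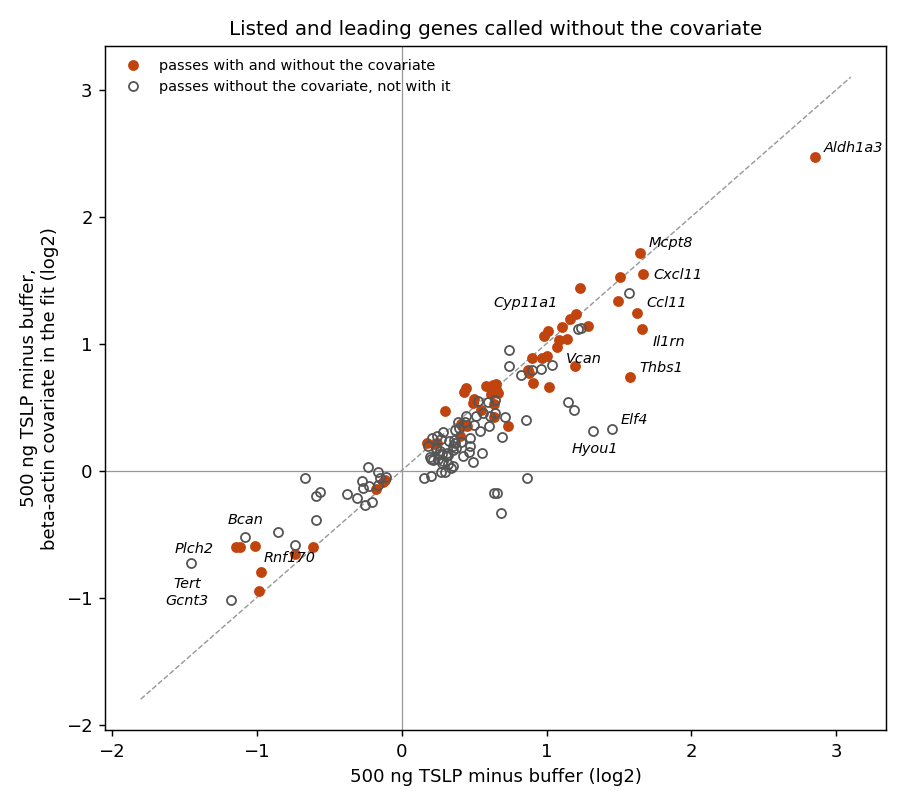
Each point is 1 of 154 listed or leading genes called without the covariate, with its change in log2 units from the fit without the beta-actin covariate (horizontal axis) and with it (vertical axis). The dashed line marks equal values, filled points are the 59 genes that also pass with the covariate, and open points are the 95 that do not. Mcpt8 and Cyp11a1 lie close to the line, and Elf4 and Hyou1 far below it.

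Of 7 club cell markers of the airway epithelium, 5 fell and 1, Cldn10, rose, by 0.44 (with the covariate 0.38, adjusted p = 0.116). Scgb1a1, the club cell secretory protein, lay between 14.20 and 14.28 with TSLP and between 14.31 and 14.42 with buffer, with no overlap, and it fell by 0.13 (SE 0.03, adjusted p = 3.89e-05; 0.09 with the covariate, adjusted p = 0.0458). These values are near the top of the scale, which reached 15.1 over all arrays. Cbr2 fell by 0.11 and Cyp2b10, a cytochrome P450, by 0.23, and neither passed with the covariate. Of 12 goblet cell and mucus genes, 0 rose and 1 fell. Muc5ac, the inducible airway mucin, ran from 7.86 through 10.66 to 10.94 with TSLP and from 8.30 through 10.97 to 11.84 with buffer, a change of -0.52 (95% interval -1.17 to 0.13). Without buffer replicate 3 the change was -0.86 and passed (adjusted p = 0.0260), and without TSLP replicate 3 it was -0.19. Clca1, a goblet cell protein induced by IL-13, ran from 10.82 through 13.70 to 13.97 with TSLP and from 11.56 through 13.80 to 14.10 with buffer. The lowest value was replicate 3 in both groups, and the other 14 arrays lay within 13.56 to 14.10, again near the top of the scale. The interval of the change, -1.44 to 1.03, was wide. In naive mice at 6 h, Clca1 was higher with 500 ng TSLP than with buffer by 1.75 (SE 0.67, adjusted p = 0.0278). Gcnt3, a mucin glycosyltransferase, was the member that fell, by 1.18 (SE 0.34, adjusted p = 0.0028), with an adjusted p of 0.0782 with the covariate. Chil3, a chitinase-like protein of macrophages, averaged 13.68 ± 0.58 with TSLP and 13.85 ± 0.32 with buffer, and its interval was -0.40 to 0.08.

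Falls past 2-fold numbered 6, and the largest was that of Tert. Tert, the catalytic subunit of telomerase, ran from 4.57 through 5.08 to 5.78 with TSLP and from 5.63 through 6.45 to 7.84 with buffer. It fell by 1.45 (SE 0.26, adjusted p = 3.67e-06), and by 0.72 with the covariate (adjusted p = 0.0693). Plch2, a phospholipase C, fell by 1.14 (SE 0.15, adjusted p = 2.32e-09; 0.60 with the covariate, adjusted p = 0.00275), and Hsd17b14, a hydroxysteroid dehydrogenase, by 1.11 (SE 0.16, adjusted p = 1.56e-08; 0.60 with the covariate). Rnf170, a ubiquitin ligase, lay between 6.55 and 7.22 with TSLP and between 7.28 and 8.46 with buffer. It fell by 1.01 (SE 0.14, adjusted p = 5.81e-09; 0.59 with the covariate, adjusted p = 0.00271). Depp1, a target of FOXO factors, fell by 0.97 (SE 0.16, adjusted p = 3.71e-07) and by 0.80 with the covariate, and its second probe set fell by 0.81. Bcan, the proteoglycan brevican, did not overlap between the groups and fell by 1.08 (adjusted p = 7.18e-06), with an adjusted p of 0.0912 with the covariate. A second, dimmer Bcan probe set changed by -0.25 (adjusted p = 0.0190; -0.16 with the covariate, adjusted p = 0.336). Krtap17-1, a keratin-associated protein, fell by 0.98 (adjusted p = 0.000361).

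Against the neighbouring doses at 6 h in sensitized mice, the 500 ng arrays differed from the 150 ng arrays in 2947 genes (21.8%), of which 1502 were higher, and the fit with the covariate called 744 genes. The 1500 ng arrays differed from the 500 ng arrays in 3383 genes (25.1%), with 985 higher, and in 104 genes with the covariate. The beta-actin measure averaged 2.29 at 150 ng, 1.79 at 500 ng and 1.26 at 1500 ng. Aldh1a3 averaged 7.20 ± 1.27 with saline, 6.59 ± 0.78 with buffer, 8.81 ± 1.33 at 150 ng, 9.45 ± 0.70 at 500 ng and 9.94 ± 0.75 at 1500 ng (SD, n = 8, 8, 7, 8 and 8). The steps of Aldh1a3 between neighbouring doses of TSLP did not pass, with 0.64 between 500 and 150 ng (adjusted p = 0.320) and 0.49 between 1500 and 500 ng (adjusted p = 0.426). Mcpt8 averaged 8.38 with saline, 8.10 with buffer, 8.88 at 150 ng, 9.74 at 500 ng and 10.01 at 1500 ng, and the step of 0.86 between 500 and 150 ng passed (adjusted p = 0.00215), while that of 0.26 between 1500 and 500 ng did not (adjusted p = 0.372). Cxcl11 and Cxcl10 were higher at 500 than at 150 ng by 1.07 (adjusted p = 0.0205) and 0.93 (adjusted p = 0.0403), and Il1b by 0.77 (adjusted p = 0.00685). For Il13 the step was 0.20 (adjusted p = 0.705) and for Ccl11 0.47 (adjusted p = 0.310). Tert averaged 5.11 at 500 ng and 6.76 at 150 ng, a difference of -1.65 (SE 0.27, adjusted p = 5.01e-06). The steps given here for single genes are from the fit without the covariate. The beta-actin measure itself differed between 500 and 150 ng by -0.49 (exact permutation, adjusted p = 0.00305), and its part in these steps was not tested.

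**Figure D5:**
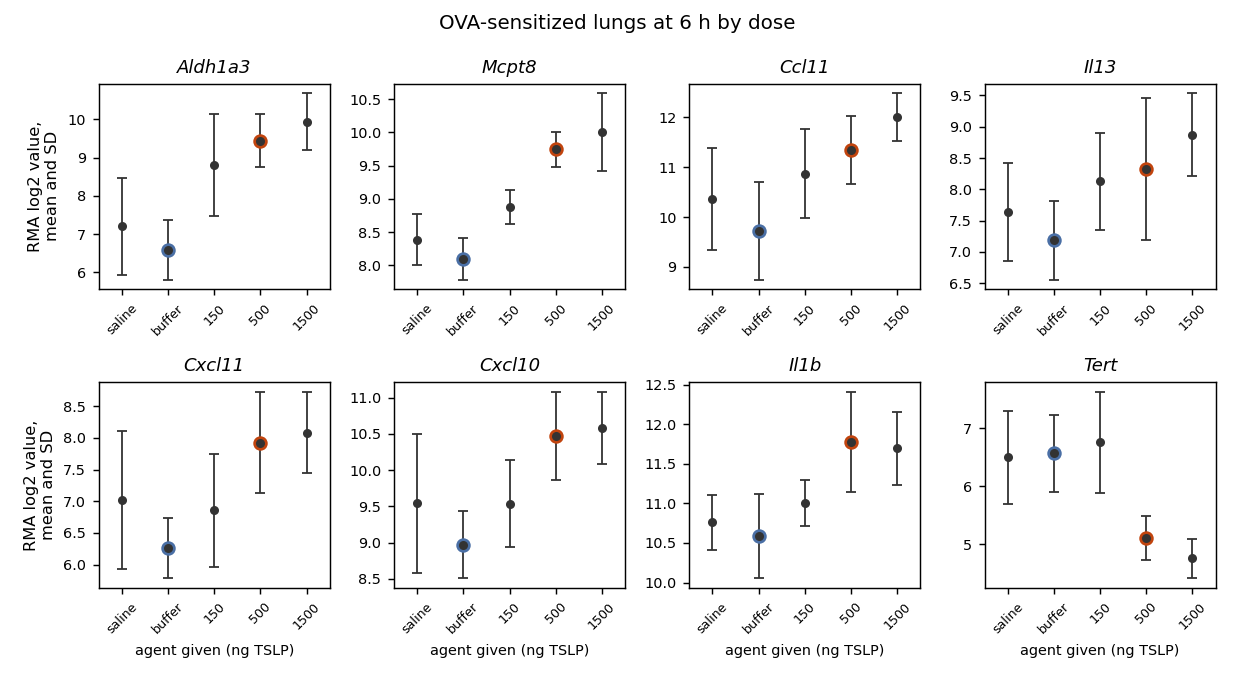
Means and SDs of RMA log2 values (vertical axes) of 8 genes in OVA-sensitized lungs at 6 h are plotted by the agent given (horizontal axes), from saline and buffer through 150, 500 and 1500 ng TSLP. The buffer mean is ringed in blue and the 500 ng mean in orange. Aldh1a3 averaged 8.81 at 150 ng and 9.45 at 500 ng, and Tert 6.76 at 150 ng and 5.11 at 500 ng.

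The same buffer arrays served for the other doses, so their changes against buffer share controls with those above and are given side by side only. Calls against buffer numbered 22 genes (0.163%) at 150 ng and 8194 genes (60.7%) at 1500 ng. For Aldh1a3 the change was 2.21 at 150 ng, 2.85 at 500 ng and 3.35 at 1500 ng. For Ccl11 it was 1.15, 1.62 and 2.29, and for Il13 it was 0.94, 1.14 and 1.69. Against saline in place of buffer, the 500 ng arrays differed in 5689 genes (42.2%). Beside the genes given above, Ccl24, Cxcl5, S100a8, Atf3 and Krtap17-1 did not pass against saline (adjusted p = 0.399, 0.0598, 0.0592, 0.402 and 0.0806). Buffer itself differed from saline in 48 genes (0.356%), among them Gzmb, which was lower with buffer by 0.67 (adjusted p = 0.0267), and Enpp3, a basophil and mast cell surface enzyme, which was lower by 0.64 (adjusted p = 0.0358).

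Whether sensitization altered the response to 500 ng was asked by setting the change in OVA-sensitized mice against that in naive mice, which used other buffer arrays. In naive lungs 5675 genes (42.1%) were called at 6 h, and the beta-actin measure there averaged 1.44 with TSLP and 2.14 with buffer. Of the genes called in sensitized mice, 3113 were also called in naive mice, 56.3% of the first list and 54.9% of the second, with the same sign for 3014. The change itself differed between sensitized and naive mice for 986 genes (7.31%), 615 of them with the larger value in sensitized mice. That share of 62.4% was 46.2% after quantile normalization. Cxcl10 averaged 9.09 ± 0.73 with TSLP and 9.11 ± 0.55 with buffer in naive mice (SD, n = 8 and 6), and the difference between the 2 changes was 1.52 (SE 0.49, adjusted p = 0.0406). For Cxcl11 the difference was 1.70 (SE 0.50, adjusted p = 0.0246) and for Aldh1a3 2.19 (SE 0.64, adjusted p = 0.0216), the change in naive mice being -0.03 and 0.67. Il1a, Il4ra and Icam1 also changed more in sensitized mice, by 0.88, 0.49 and 0.26. Chil3 changed less, by -0.77 (SE 0.18, adjusted p = 0.00389), since it averaged 12.92 ± 0.46 with TSLP and 12.31 ± 0.13 with buffer in naive mice. The differences for Mcpt8 (0.67, adjusted p = 0.173) and Il13 (0.69, adjusted p = 0.361) did not pass. Of the 6 naive buffer arrays, 2 carried gullet keratins, and without all gullet arrays the count was 1935. With saline in place of buffer in both kinds of mice it was 0 by limma, with 2038 genes at an unadjusted p under 0.05. Then the difference was 1.18 for Aldh1a3 (unadjusted p = 0.0566) and 0.36 for Cxcl10 (unadjusted p = 0.449).

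Genes called in sensitized lungs at 6 h were called at 24 h about as often as all genes, and mostly with the opposite sign. At 24 h, 500 ng TSLP gave 1589 calls against its own buffer arrays (11.8% of all genes). Both times shared 630 calls, which were 11.4% of the 6 h list and 39.6% of the 24 h list. The sign was the same for 217 of the 630. The change differed between 24 h and 6 h for 5133 genes (38%), and for 873 with the covariate. The beta-actin measure averaged 1.38 with TSLP and 1.28 with buffer at 24 h (exact permutation p = 0.37, n = 7 and 8). Its difference between TSLP and buffer was -0.78 at 6 h and 0.10 at 24 h. The part of this measure in the differences between the 2 times was not tested. Over all 13494 genes, 1002 rose and 587 fell at 24 h. Goblet cell genes, of which 0 of 12 rose at 6 h, rose in 7 of 12 cases at 24 h. Muc5ac averaged 10.58 ± 0.72 with TSLP and 9.45 ± 1.01 with buffer at 24 h, and the difference between the 2 times was 1.65 (SE 0.47, adjusted p = 0.00368; 1.34 with the covariate, adjusted p = 0.0871). Capn9, a protease of mucous cells, and Gcnt3 differed by 2.11 and 1.91, and both passed with the covariate (adjusted p = 0.0255 and 0.0329). Of the 5 eosinophil markers, 3 rose at 24 h, namely Epx, Prg2 and Alox15, by 1.27, 1.34 and 1.54, and the difference from 6 h passed for Epx (1.15, adjusted p = 0.0365; with the covariate 0.167) and not for Prg2 (1.01, adjusted p = 0.0555) or Alox15 (0.99, adjusted p = 0.227). Il13, Ccl17 and Ccl11 rose at 24 h by 1.44, 1.40 and 1.40, and their differences from 6 h did not pass. The change at 24 h minus that at 6 h was below 0 for Il1rn at -1.64 (adjusted p = 0.000858), Il1b at -1.21 (adjusted p = 0.00105), Cd274 at -0.95 (adjusted p = 8.57e-05) and Ifit2 at -1.18 (adjusted p = 2.16e-07). With the covariate, the adjusted p was 0.114 for Il1rn, 0.107 for Il1b, 0.0674 for Cd274 and 0.000947 for Ifit2. For Aldh1a3 the difference was -1.49 (adjusted p = 0.0485), with a rise of 1.37 remaining at 24 h, and for Mcpt8 it was -0.73 (adjusted p = 0.0454), with a rise of 0.91. With the covariate these 2 differences had adjusted p of 0.327 and 0.107.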

How the data were processed

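Total RNA of whole lung was labelled with a 3' amplification kit and hybridized to arrays, 1 per animal, as the labels' protocols state. The authors deposited log2 values made with RMA, per the submitters' processing notes, which name no version. There were 26166 probe sets. A probe set was named from the platform annotation where it listed 1 gene (22892 probe sets), 260 listed several and 3014 had no entry, and each gene took its brightest probe set, by the mean of all arrays. The fit was limma 3.58.1 in R 4.3.3 with 1 mean per group over 20 groups, a constant prior and two-sided tests, so that all groups share 1 estimate of the spread (129 residual degrees of freedom), and was tested on simulated data. No filter on low values was used. The beta-actin covariate was the 3' minus 5' difference of its control probe sets.

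Groups were taken from the labels, which name separate animals. The comparison, the gene lists and the tests were chosen with earlier results of these data known. Named genes are the 12 largest rises and 8 largest falls past the threshold, 16 cytokine, receptor, chemokine and cell marker genes, the members of each described list with the lowest p (at most 4), and up to 4 rises and 4 falls of each further comparison, and other members of a described list are named where its counts are given. RefSeq promoters were matched by gene symbol. No 2 arrays held identical values. Some list members, such as Retnla, Arg1, Ccl2 and Il6, were not analysed here. Alternatives were the probe set rule, a filter on dim genes, quantile normalization, array weights, another prior, animal number as a block, the covariate, other samples in the fit, saline in place of buffer and leaving out each array.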

Additional observations from a re-analysis of the deposited data

Results flagged for a closer look

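An array stood apart from the other 7 of its group in 20 of the 162 sets of values examined, by the gap to the nearest array as a share of the range; chance gives about 1 in 20. In the 500 ng TSLP group, replicate 5 was the low array for Aldh1a3 (7.87), Cd274 (9.80), Cd44 (11.16), Cd83 (11.46), Cxcl5 (5.95), Hsp90b1 (12.32) and Stat5a (10.98). Replicate 3 of that group was low for Clca1 (10.82), Muc5ac (7.86), Chil3 (12.32) and Bcan (8.45), replicate 4 was high for Ccr3 (7.30) and Prg2 (8.20), and replicate 1 was high for Pecam1 (10.82). In the buffer group, replicate 3 was low for Clca1 (11.56), Capn9 (6.19), Cd83 (10.63), Ednrb (9.78), Il1a (5.65) and Cbr2 (14.01). Without TSLP replicate 5 the number of genes called was 5773, and without TSLP replicate 3 it was 5199, against 5529 with all arrays.

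The change with 500 ng TSLP at 6 h differed between OVA-sensitized and naive mice for 10 of the 81 named genes by the limma interaction term (change in sensitized minus change in naive mice, log2, in parentheses): Aldh1a1 (-0.18), Aldh1a3 (2.19), Atf3 (0.74), Chil3 (-0.77), Cxcl10 (1.52), Cxcl11 (1.70), Icam1 (0.26), Ifit2 (0.58), Il1a (0.88), Il4ra (0.49). Over all genes the share that differed was 7.31%. All 10 also passed without the gullet arrays, and with saline in place of buffer all 10 had the same sign but none passed.

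The change in sensitized mice differed between 24 h and 6 h for 38 of the 81 named genes by the interaction term (change at 24 h minus change at 6 h, log2). Over all genes the share was 38%, and the count of 5133 was 873 with the beta-actin covariate. Of the genes given with the covariate above, Capn9, Gcnt3 and Ifit2 passed with it. Muc5ac, Il1rn, Il1b, Cd274, Aldh1a3 and Mcpt8 did not. The value was positive for Aldh1a1 (0.15), Bcan (1.20), Capn9 (2.11), Cbr2 (0.14), Cyp2b10 (0.25), Depp1 (0.88), Gcnt3 (1.91), Hsd17b14 (1.13), Muc5ac (1.65), Plch2 (1.52), Rnf170 (1.03), Scgb1a1 (0.14), Tert (1.89). It was negative for Aldh1a3 (-1.49), Cd274 (-0.95), Cd44 (-0.82), Cxcl11 (-1.24), Ednrb (-0.86), Egr1 (-0.71), Elf4 (-1.78), Flt1 (-1.09), Gzma (-0.49), Gzmb (-0.67), Hyou1 (-1.12), Icam1 (-0.17), Ifit2 (-1.18), Iigp1 (-0.75), Il1a (-0.77), Il1b (-1.21), Il1rn (-1.64), Jak1 (-0.45), Jun (-0.47), Kdr (-0.76), Kit (-0.49), Mcpt8 (-0.73), Ncr1 (-0.68), Pecam1 (-0.60), Thbs1 (-1.14).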

How the results depend on the processing

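The main count of 5529 genes lay within 1.5 times under the mean of all probe sets, the filter on dim genes, quantile normalization, array weights, the trended prior, the fit to the compared groups alone, saline in place of buffer, an adjusted p of 0.01, and without gullet arrays, and leaving out each array gave 4888 to 5790. With every probe set tested on its own it was 10289 of 26166 probe sets, against 5529 of 13494 genes. With the beta-actin covariate it was 1078, and in the compared groups alone with the covariate 0 by limma (1436 at an unadjusted p under 0.05). The sensitized minus naive count of 986 was 620 with the mean of all probe sets, 1668 with every probe set, 1764 with array weights, 1935 without gullet arrays and 0 with saline (2038 at an unadjusted p under 0.05). The 24 h minus 6 h count of 5133 was 9504 with every probe set and 873 with the covariate. The 500 minus 150 ng count of 2947 was 5721 and 744 under these, and the 1500 minus 500 ng count of 3383 was 6382 and 104, and 5737 with array weights. The cause of these moves was not tested. Pyruvate carboxylase in place of beta-actin gave a difference of 0.12, opposite in sign to the -0.78 of beta-actin. Of the 69 named genes called, 40 passed with the covariate and 53 against saline; Gzmb then had -0.0209, and Il4, Il5, Il13, Ccl17 and Ccl24 were among the 15 no longer called. Leaving out 1 array ended the call of Nkg7 (without buffer replicate 6, adjusted p = 0.0611) and S100a8 (0.131). Without buffer replicate 3, Muc5ac (-0.86, adjusted p = 0.0260) and Capn9 (-0.92, adjusted p = 0.0191) gained one. With the mean of all probe sets Il7r gained a call. Further, Gcnt3, Ccl24, Ednrb and S100a8 were not called in the 2 groups alone. Animal numbers are shared between groups in the labels, but the numbers did not pair the arrays: of 8 same-number pairs, correlations of deviations ran from -0.28 to 0.25, 3 were over 0.1, and 0 arrays correlated best with their own number. With the number as a replicate block, the counts were 5508, 951, 5114, 2840 and 3326 in the order above, and all 69 calls were kept. A planned second control transcript, Gapdh, was not run, since its control probe sets were not analysed here.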
